A study of Sus scrofa with 5 samples.

Results

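Genes of motile cilia and the axoneme were followed in kidney core biopsies of a pig kidney transplanted into a human. They were taken by symbol from a pig-genome count table: symbols that begin with DNAH or DNAI and a digit, DNAAF, CFAP, RSPH and a digit, or TEKT gave 58 genes, called axonemal genes here, and symbols that begin with IFT and a digit gave 13. These 71 genes are all the matches among 15235 symbols. Bulk RNA was measured in 5 kidney libraries, all titled as the second kidney of the study. Of these, 2 are labelled as controls at 0 h (control 1 and control 2), and the other 3 are xenotransplantation samples of 12, 24 and 48 h with 1 biopsy each. The sources used here do not give the genotype, strain or age, any other treatment, or whether the controls and biopsies share an animal. With no label that separates animals, p-values measure only the spread between these libraries, which may be technical.

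The axoneme is the microtubule core of a cilium. In motile cilia it carries dynein motors on its outer and inner arms, which are built in the cytoplasm with the help of the DNAAF assembly factors, and it carries radial spokes (RSPH genes), a central apparatus and tektins (TEKT genes). Intraflagellar transport (IFT) trains move cargo along the axoneme of motile and primary cilia alike, with the IFT-B complex carrying cargo outward on kinesin-2 and the IFT-A complex returning it on dynein-2. Tubule cells of the kidney carry a non-motile primary cilium, and loss of IFT genes in these cells is known to cause cysts. CFAP symbols were given for association with cilia and flagella, and not every CFAP protein is a part of the axoneme.

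Pig-table totals lay between 56129926 and 71108823 counts per library. Levels are given as CPM, the count relative to a library total scaled by TMM (trimmed mean of M values). They are not divided by gene length, so levels are compared between libraries and not between genes. The mitochondrially encoded genes took 21.9% and 33.4% of counts in the controls and from 11.8% to 14.5% in the biopsies. Marker genes of the proximal tubule, the segment that reabsorbs most of the filtrate, were all lower in the biopsies (11 of 11, median log2 fold change -2.20), with a summed level of 25267 and 26426 CPM in the controls and from 7746 to 9885 CPM in the biopsies. In bulk tissue, fewer cells of a type and less RNA per cell cannot be told apart, and the part of the tubule markers and the mitochondrial share in the results on cilia genes was not tested.

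Several genes that define cells with many motile cilia were at or near 0 in every library, whereas other genes of the same program, such as DNAH5, FOXJ1 and GMNC, were counted in each. The label of motile cilia therefore fits these libraries only in part. DNAI1, a core outer arm intermediate chain, had 0 counts in each control and 0, 1 and 2 counts at 12, 24 and 48 h. DNAI2, its partner chain, had from 1 to 4 counts per library, and the radial spoke head gene RSPH1 from 6 to 10. MCIDAS, which drives the formation of many cilia per cell, had from 1 to 6 counts per library, and CCNO of the same program had 1 count in all. Of a marker list for airway and oviduct epithelium, tissues with such cells, 10 of 12 genes were in the table, and 5 of these were at 0 in every library. Apart from TTR, which is not particular to these tissues, none had more than 3 counts in a library. The list summed to 12.9 and 14.1 CPM in the controls and to 10.4, 5.78 and 1.46 CPM at 12, 24 and 48 h. Nearly all of that was TTR, so the sum is no measure of such epithelium. Of 15 testis and sperm genes in the table, TNP1, ODF1, AKAP4, SPATA16 and ACR were at 0 in every library. The list summed to 33.5 and 30.7 CPM in the controls and to 48.6, 39.7 and 45.7 CPM at 12, 24 and 48 h, most of it from ODF2, a centrosome protein also found outside sperm. Of the others, SPATA18 rose (log2 4.30 ± 0.50, edgeR adjusted p = 0.00156) and DDX4 fell (log2 -2.20 ± 0.40), and AKAP3, ZPBP, TNP2 and SYCP1 were counted but did not pass. The part of these genes in the results was not tested.

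Of the 71 genes, 59 passed the count filter, 46 axonemal and all 13 IFT genes. The 12 that did not pass were CFAP157, CFAP161, CFAP97D1, DNAAF6, DNAI1, DNAI2, RSPH1, RSPH14, RSPH6A, TEKT2, TEKT3 and TEKT5. CFAP157 had 0 counts in every library, which allows up to 3 counts in each. Just outside the filter lay DNAAF6 with a total of 42 counts over 5 libraries, 25 of them at 48 h, and RSPH1 with 39. Just inside lay RSPH4A with 30 counts and CFAP73 with 55, which passed through the biopsies alone.

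How the graft differed from untransplanted kidney was addressed by setting the 3 biopsies against the 2 controls. Axonemal genes spread widely, from a log2 fold change of -3.76 for DNAH5 to 2.66 for DNAH17, whereas IFT genes lay between -1.14 and 0.26. With the quasi-likelihood test of edgeR and p-values adjusted by Benjamini-Hochberg over 12620 genes, 10 of 46 axonemal genes were lower and 1 was higher, and 8 of 13 IFT genes were lower and 0 higher (0 also at an unadjusted p under 0.05 and by DESeq2). Over all genes tested, 19.0% were lower and 18.5% higher. The axonemal share that was lower, 21.7%, was near this background, and the IFT share was 61.5%. The median log2 fold change was -0.51 for axonemal genes, -0.71 for IFT genes and 0.03 for all genes tested. No test compared the 2 groups of genes as sets. Without control 1 or control 2, the lower axonemal genes numbered 6 and 4 and the lower IFT genes 4 in each fit, while the share of all genes that was lower dropped to 8.24% and 5.67%. Without the 48 h biopsy 17 axonemal genes were lower, 37.0% of the 46, against 19.8% of all genes, and by DESeq2 17 were lower against 20.5% of all genes. By DESeq2 and without the 48 h biopsy the axonemal share was thus above the background. With a control left out, the share rests on few genes. In other fits it stayed near the background. It was 21.7% of the 46 against 21.0% of all genes without the 12 h biopsy, and 17.4% against 15.3% without the 24 h biopsy. With RLE size factors it was 21.7% against 19.2%.

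**Figure D1:**
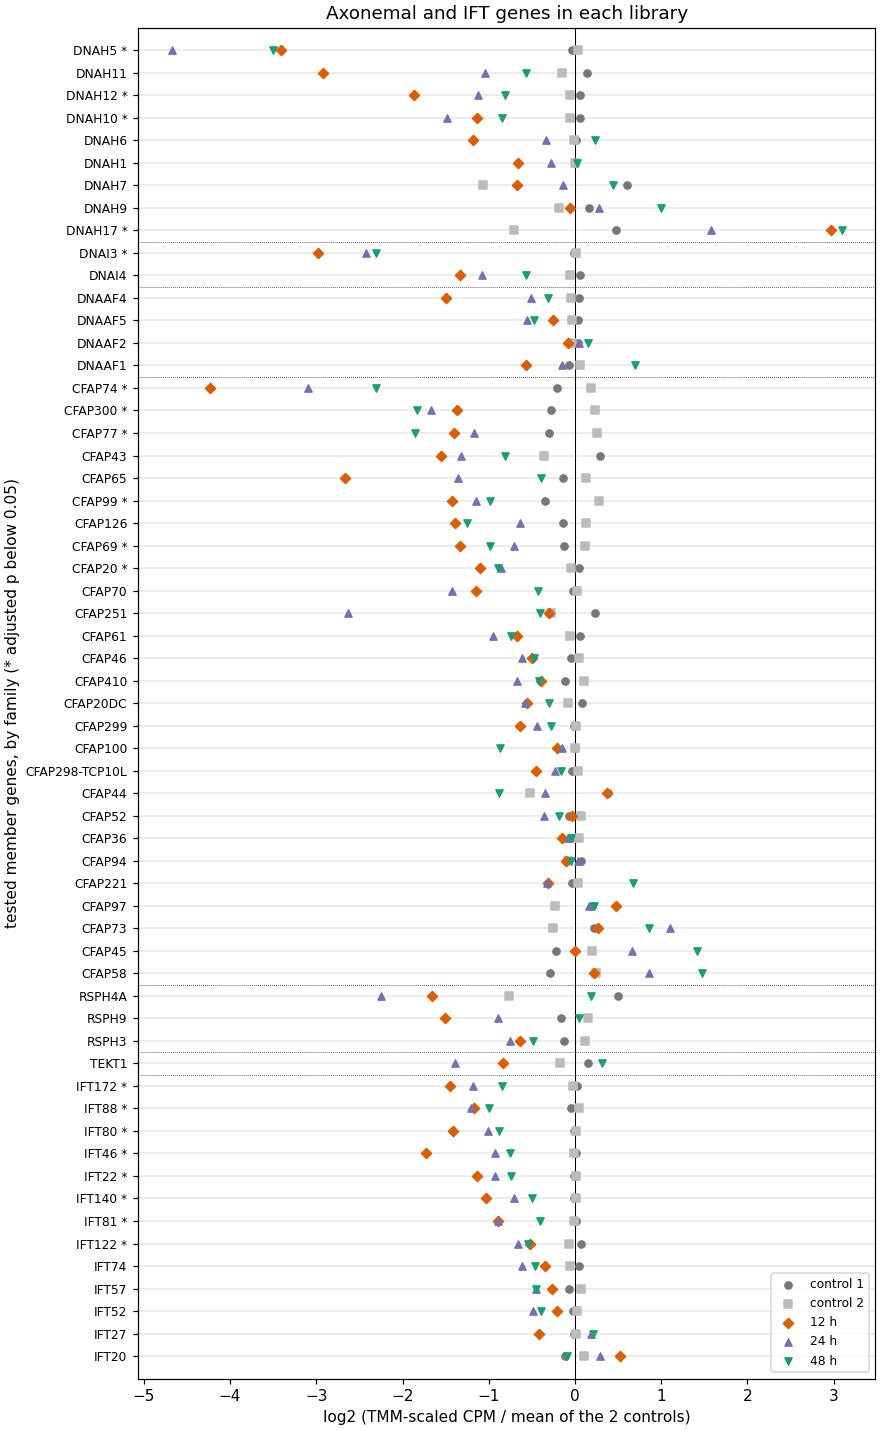
Each row is a tested gene and each mark a library, placed at the log2 ratio of its CPM to the mean of the 2 controls; dotted lines part the families, and a star marks an adjusted p below 0.05. All 3 biopsies of DNAH5, CFAP74 and DNAI3 lie far to the left of their controls, those of DNAH17 lie to the right, and for 11 of the 13 IFT genes the biopsies lie to the left of both controls.

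The groups of genes differed in CPM, which is not divided by gene length and so is no comparison of expression between them. Every IFT gene had a mean of at least 10 CPM over the 5 libraries, whereas 10 of the 46 axonemal genes did. Among genes at that level, a limit chosen after the values were seen, 5 of 10 axonemal genes, 8 of 13 IFT genes and 21.9% of all 8435 genes were lower. The median log2 fold change there was -0.68 for axonemal and -0.71 for IFT genes, against -0.01 for all genes. All 3 biopsies lay below both controls for 28 of 46 axonemal genes and 11 of 13 IFT genes, against 32.6% of all genes tested. They lay above both controls for 2 axonemal genes, DNAH17 and CFAP73, against 33.7%.

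**Figure D2:**
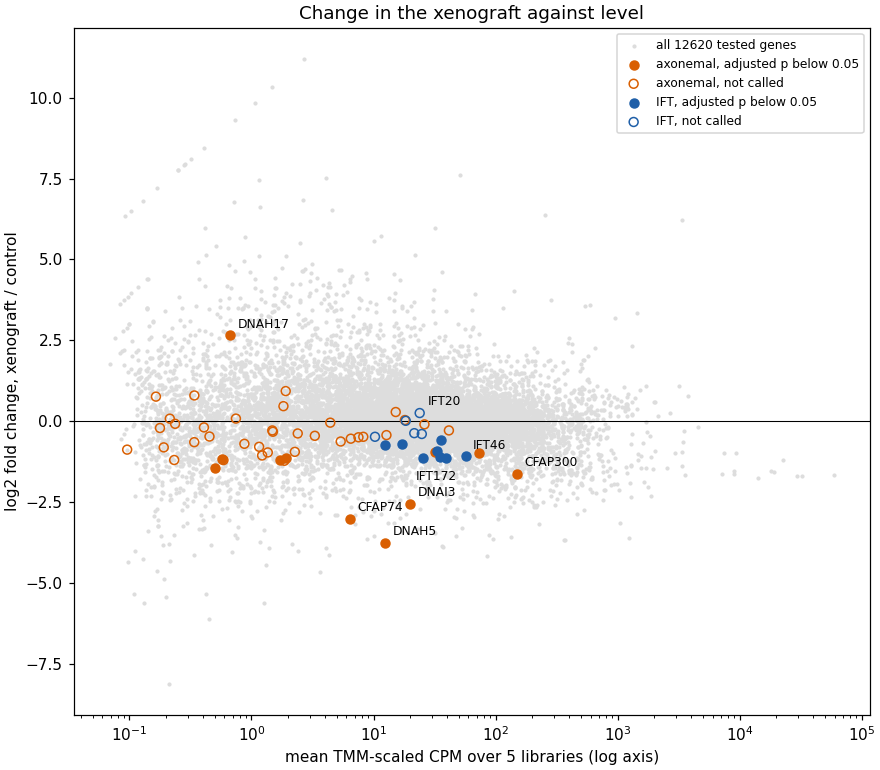
Each point is a gene, with its mean CPM over the 5 libraries on a log axis and its log2 fold change, xenograft over control, on the other; filled points have an adjusted p below 0.05. The IFT genes sit together at 10 CPM or more and at or below a log2 fold change of 0.26, while the axonemal genes reach down to levels of a few counts.

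Among outer arm dynein heavy chains, DNAH5 fell and DNAH17 rose. DNAH5, the outer arm motor chain often mutated in primary ciliary dyskinesia, was at 27.4 and 28.8 CPM in the controls and at 2.65, 1.10 and 2.49 CPM at 12, 24 and 48 h. All biopsies were far below both controls, and the 24 h biopsy was lowest. DNAH5 was thereby 13.5-fold lower (log2 -3.76 ± 0.36, standard error (SE), 3 biopsies against 2 controls, edgeR adjusted p = 0.000933). DNAH17, an outer arm chain best known from sperm tails, was at 0.218 and 0.096 CPM in the controls and at 1.23, 0.467 and 1.34 CPM in the biopsies, which do not overlap. It rose 6.31-fold (log2 2.66 ± 0.64, edgeR adjusted p = 0.0177) on 13 and 5 control counts against 89, 34 and 90. The count filter level was reached in 1 of 2 controls and in 3 biopsies, so DNAH17 was tested only because of the biopsies. It did not pass without control 1 or without control 2 (log2 3.37 and 2.21). PGS1, which overlaps it in RefSeq's annotation of Sscrofa11.1, was at log2 -0.05 ± 0.15.

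The other outer arm chains did not pass. DNAH11 was at 3.11 and 2.53 CPM in the controls and at 0.373, 1.37 and 1.91 CPM in the biopsies, all below the controls (log2 -1.21 ± 0.60, adjusted p = 0.154), but it passed without the 48 h biopsy (adjusted p = 0.0474). CDCA7L, which overlaps DNAH11 in that annotation, rose (log2 1.51 ± 0.26, adjusted p = 0.00492). DNAH9 lay at 1.66 and 1.31 CPM in the controls and at 1.42, 1.80 and 2.95 CPM in the biopsies, which overlap (log2 0.47 ± 0.39).

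Inner arm chains fell in 2 of 5 members, where 19.0% of all genes tested were lower, and 5 genes are too few to read an excess. DNAH10 was at 2.95 and 2.73 CPM in the controls and at 1.285, 1.02 and 1.58 CPM in the biopsies (log2 -1.13 ± 0.30, adjusted p = 0.0239). DNAH12 was at 2.71 and 2.51 CPM against 0.7185, 1.20 and 1.49 CPM (log2 -1.20 ± 0.36, adjusted p = 0.0370). For both genes the biopsies stayed below the controls, but neither passed without control 1, control 2 or the 24 h biopsy (adjusted p from 0.0698 to 0.182). DNAH6, DNAH1 and DNAH7 were at log2 -0.32, -0.28 and -0.07 with overlapping groups.

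Of the intermediate chains, DNAI3 carried the change. DNAI3, a part of an inner arm dynein formerly named WDR63, was at 39.1 and 39.6 CPM in the controls and at 4.97, 7.31 and 7.94 CPM in the biopsies. The controls nearly coincide, and every biopsy was far below them. It was 5.84-fold lower (log2 -2.55 ± 0.21, adjusted p = 0.000574). DNAI4, of the same inner arm, was also below both controls in every biopsy but did not pass (log2 -0.96 ± 0.34, adjusted p = 0.0606), except by DESeq2 (adjusted p = 0.0353) and without the 48 h biopsy (0.0187).

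Of the assembly factors, none of the 4 tested DNAAF genes passed with edgeR, and DNAAF5 passed by DESeq2 and without the 12 h biopsy (log2 -0.42 ± 0.15, adjusted p = 0.0680 by edgeR). DNAAF2, with the most counts of the family, was at 18.1 and 17.4 CPM in the controls and at 16.8, 18.4 and 19.7 CPM in the biopsies (log2 0.04 ± 0.13). Radial spoke and tektin genes were low, and none of the 4 that were tested passed with edgeR. RSPH3, the best counted spoke gene, was at 6.23 and 7.39 CPM against 4.38, 4.05 and 4.86 CPM (log2 -0.62 ± 0.21, adjusted p = 0.0525), and it passed by DESeq2 (0.0129) and without the 48 h biopsy (0.0355). TEKT1, the only tektin tested, was at log2 -0.47 ± 0.55 on 15 to 45 counts per library.

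CFAP genes fell in 6 of 27 tested members, 22.2%, near the 19.0% of all genes. CFAP74, a part of the central apparatus, was at 11.7 and 15.3 CPM in the controls and at 0.7185, 1.58 and 2.73 CPM at 12, 24 and 48 h. Each biopsy was below the controls, with the 12 h biopsy lowest and the 48 h biopsy nearest to them. It was 8.07-fold lower (log2 -3.01 ± 0.50, adjusted p = 0.00569), though without control 2 it did not pass (adjusted p = 0.0574). CFAP300, which takes part in dynein arm assembly, was at 207 and 294 CPM against 96.8, 78.6 and 70.7 CPM. Control 2 was above control 1, and all biopsies were well below both. It was 3.06-fold lower (log2 -1.61 ± 0.20, adjusted p = 0.00158). The 58 axonemal genes together summed to 624 and 730 CPM in the controls, a sum that CFAP300 leads, and to between 323 and 339 CPM per biopsy.

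CFAP20, a protein of the junction between the tubules of each axonemal doublet that primary cilia also hold, was at 46.3 and 43.7 CPM in the controls and at 21.0, 24.8 and 24.3 CPM in the biopsies (1.92-fold lower, log2 -0.94 ± 0.13, adjusted p = 0.00216). CFAP69, known from sperm tails and olfactory cilia, was at 95.4 and 113 CPM against 41.5, 63.8 and 52.6 CPM (1.99-fold lower, log2 -0.99 ± 0.19, adjusted p = 0.00781), and did not pass without control 2 (0.0896). Both stayed below the controls in every biopsy. CFAP77 (log2 -1.44 ± 0.40) and CFAP99 (log2 -1.17 ± 0.38) fell from 0.653 to 1.04 CPM in the controls to at most 0.432 CPM in the biopsies. These last genes rest on 15 to 54 counts per library: neither passed without control 1 or control 2, and CFAP99 did not pass by DESeq2, with no count filter, or without the 12 h or 24 h biopsy (adjusted p from 0.0531 to 0.342 over these fits).

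The other 21 tested CFAP genes did not pass with edgeR on all 5 libraries. Of these, 7 with log2 values below 0 passed under at least 1 alternative: CFAP70 (-0.94 ± 0.35), CFAP46 (-0.53 ± 0.18), CFAP43 (-1.19 ± 0.40), CFAP126 (-1.05 ± 0.35), CFAP20DC (-0.47 ± 0.18), CFAP65 (-1.19 ± 0.63) and CFAP410 (-0.49 ± 0.19). Their lowest adjusted p-values over the alternatives ranged from 0.00906 for CFAP70 to 0.0423 for CFAP410. The best of several fits was taken for each gene. The share of all genes that pass in this way was not counted, so the 7 cannot be set against a background. CFAP36, CFAP94 and CFAP97, with at least 222 counts in every library, were at log2 -0.09 ± 0.12, -0.04 ± 0.21 and 0.29 ± 0.18. CFAP298-TCP10L, a symbol that joins CFAP298 with its neighbour, was at log2 -0.28 ± 0.13. CFAP58 was at 1.004 and 1.46 CPM in the controls and at 1.44, 2.23 and 3.41 CPM in the biopsies (log2 0.94 ± 0.43, adjusted p = 0.128), and passed without the 12 h biopsy (adjusted p = 0.0329).

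IFT-A genes fell in both members, where 19.0% of all genes tested were lower. IFT122 was at 46.6 and 42.1 CPM in the controls and at 30.8, 28.0 and 30.4 CPM in the biopsies (log2 -0.58 ± 0.12, adjusted p = 0.0100). IFT140 was at 16.3 and 16.5 CPM against 8.001, 10.03 and 11.6 CPM (log2 -0.73 ± 0.18, adjusted p = 0.0207). The biopsies were below the controls for both, but neither passed without control 1 or control 2 (adjusted p from 0.0674 to 0.138), nor IFT140 without the 24 h biopsy (0.0536). TMEM204, which overlaps IFT140 in the RefSeq annotation, rose (log2 0.54 ± 0.14, adjusted p = 0.0233).

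IFT-B genes fell in 6 of 11 members (54.5%, against 19.0% of all genes tested), by 1.64- to 2.20-fold. IFT172, a long subunit that links the train to its turnaround at the tip, was at 59.6 and 57.3 CPM in the controls and at 21.4, 25.7 and 32.5 CPM at 12, 24 and 48 h (2.20-fold lower, log2 -1.14 ± 0.18, adjusted p = 0.00379). IFT88, whose loss gives polycystic kidneys in mice, was at 36.3 and 38.9 CPM against 16.7, 16.3 and 18.8 CPM (2.18-fold lower, log2 -1.12 ± 0.13, adjusted p = 0.00120). The controls of each differed by a few CPM, and the biopsies lay far below them. IFT80 was at 50.7 and 51.1 CPM against 19.1, 25.3 and 27.6 CPM (log2 -1.09 ± 0.17, adjusted p = 0.00355). IFT22, a small GTPase of the train, was at 46.4 and 47.0 CPM against 21.3, 24.6 and 27.9 CPM (log2 -0.93 ± 0.14, adjusted p = 0.00347). In IFT172, IFT80 and IFT22 the 12 h biopsy was the lowest and the 48 h biopsy the nearest to the controls.

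IFT46 was at 83.3 and 82.5 CPM in the controls and at 25.1, 43.7 and 49.3 CPM in the biopsies (log2 -1.08 ± 0.27, adjusted p = 0.0219). IFT81, which binds tubulin with IFT74, was at 22.4 and 21.9 CPM against 11.9, 11.9 and 16.8 CPM (log2 -0.71 ± 0.18, adjusted p = 0.0225). Neither passed without control 1 or control 2 (adjusted p from 0.109 to 0.132), nor IFT81 without the 24 h biopsy (0.0671), although all biopsies lay below both controls.

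The 5 IFT genes that did not pass were of 2 kinds. IFT57, IFT74 and IFT52 were below both controls in every biopsy, by log2 -0.39 ± 0.13, -0.47 ± 0.16 and -0.36 ± 0.14, with adjusted p of 0.0504, 0.0507 and 0.0727. They passed without the 12 h biopsy (0.0211, 0.0298 and 0.0221), and IFT57 and IFT74 also by DESeq2 and with RLE size factors. LRRC19, which overlaps IFT74 in the RefSeq annotation, fell (log2 -2.02 ± 0.22, adjusted p = 0.00117). IFT20, which also serves at the Golgi, was at 19.8 and 23.0 CPM in the controls and at 30.7, 26.0 and 19.99 CPM in the biopsies (log2 0.26 ± 0.20). IFT27, a small GTPase, was at 18.0 and 18.4 CPM against 13.7, 20.8 and 21.0 CPM (log2 0.02 ± 0.21). For these last genes the groups overlap.

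**Figure D3:**
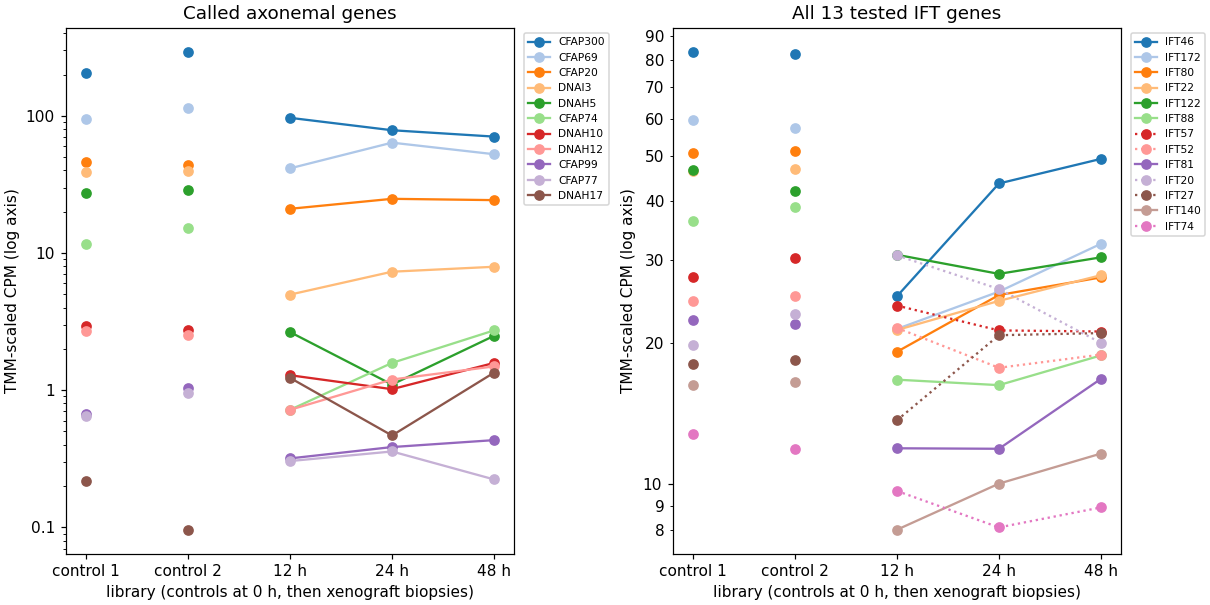
CPM on a log axis in each library, for the 11 axonemal genes with an adjusted p below 0.05 (left) and the 13 IFT genes (right; dotted lines for genes that did not pass), with lines joining the 3 biopsies. The biopsies of CFAP74 and IFT46 start lowest at 12 h, DNAH17 alone lies above its controls on the left, and IFT20 starts above its controls at 12 h and ends between them at 48 h.

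Expression within the graft was followed by a slope over 12, 24 and 48 h. The slope was above 0 in 37 of 46 axonemal genes and 9 of 13 IFT genes, against 49.5% of all genes tested, and in 9 of 9 dynein heavy chains. By edgeR only CFAP74 passed among the 59 genes, rising by log2 1.17 ± 0.25 per 24 h (edgeR adjusted p = 0.0366), and not without the 12 h biopsy (log2 0.78, adjusted p = 0.0751). Of all genes tested, 3.34% rose and 0.983% fell with time. No IFT gene passed with edgeR or DESeq2, while 5 slopes above 0 and 1 below had an unadjusted p under 0.05. The largest IFT slopes were those of IFT46 (log2 0.57 ± 0.17, adjusted p = 0.114) and IFT20 (log2 -0.41 ± 0.13, adjusted p = 0.132). Without the 24 h biopsy 9 axonemal and 4 IFT genes rose and 1 IFT gene, IFT20, fell, but in that fit 13.8% of all genes rose and 8.28% fell. Each time is a single biopsy, so time and biopsy cannot be told apart.

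In both groups of genes the median was lowest at 12 h and nearest to the controls at 48 h. For axonemal genes the median log2 ratio to the control mean was -0.66, -0.63 and -0.40 at 12, 24 and 48 h, and for IFT genes -0.89, -0.71 and -0.50. Over all genes tested it lay between 0.00 and 0.02. At 12 h, 37 of 46 axonemal and 12 of 13 IFT genes were below both controls, against 44.3% of all genes tested. At 48 h the counts were 30 and 11, against 44.0%, and 28 axonemal and 11 IFT genes were below at both times. Without the 48 h biopsy the median IFT slope was 0.00, against 0.25 with it, and DNAH5 and DNAH17 then had slopes below 0 that passed.

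A list drawn up for regulators of motile cilia genes, which also holds other cilia genes, went both ways. Of its 16 tested genes 1 rose and 8 fell (median log2 -0.21), where 18.5% of all genes rose and 19.0% fell. FOXJ1, the forkhead factor that turns on motile cilia genes, was at 4.89 and 2.92 CPM in the controls and at 7.06, 8.06 and 8.43 CPM in the biopsies, all above the controls. It rose 2.01-fold (log2 1.006 ± 0.27, adjusted p = 0.0251), but did not pass without control 2 (0.179) or the 24 h biopsy (0.0680). GMNC, which starts the program for many cilia per cell, was at 6.96 and 6.95 CPM against 1.67, 2.18 and 3.62 CPM and fell (log2 -1.48 ± 0.34, adjusted p = 0.0145). RFX3, of the RFX factors that act on both motile and primary cilia genes, was at 10.2 and 12.2 CPM against 4.24, 7.02 and 5.51 CPM and fell (log2 -0.998 ± 0.24, adjusted p = 0.0182). FOXJ1 was thus higher in the biopsies while GMNC and RFX3 were lower.

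RFX1 and RFX7 fell by less (log2 -0.60 ± 0.18 and -0.42 ± 0.11), and RFX2 and RFX5 were at log2 0.63 ± 0.37 and -0.01 ± 0.23 and did not pass. Not every gene on this list is a transcription factor or a regulator of motile cilia genes. DZIP1L, a protein of the ciliary transition zone, fell (log2 -1.14 ± 0.12, edgeR adjusted p = 0.00108). ULK4 (log2 -1.17 ± 0.21) and SPAG8 (log2 -0.65 ± 0.20) also fell. The counts of this list are therefore not counts of regulators alone. Without control 1 or control 2, the share of this list that was lower fell to near that of all genes. GMNC (log2 -1.48 and -1.48) and RFX3 (log2 -1.12 and -0.87) no longer passed there. The 8 genes lower became 5 without the 24 h biopsy, where 15.3% of all genes were lower.

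A list of other axoneme parts and genes that act with them, with symbols outside the families, held 52 tested genes. Of these, 15 were lower (28.8%) and 4 higher (7.69%, median log2 -0.42). The list includes assembly factors and kinases, LRRC6 and STK33 among them, so its counts are not of axoneme parts alone. VWA3B was at 5.72 and 5.05 CPM in the controls and at 0.415, 1.003 and 1.31 CPM in the biopsies (log2 -2.57 ± 0.45, adjusted p = 0.00579). KIF6, a kinesin, fell (log2 -1.93 ± 0.37), as did the dynein light chain gene DYNLRB2 (log2 -1.73 ± 0.17) and MORN2 (log2 -1.54 ± 0.16). Among the genes that rose, the tubulin gene TUBB4B, which also serves outside cilia, was at 54.2 and 61.2 CPM against 280, 226 and 130 CPM (log2 1.88 ± 0.33, adjusted p = 0.00652). STK33, a kinase gene, was at 0.201 and 0.134 CPM against 6.08, 4.13 and 2.71 CPM (log2 4.66 ± 0.51, edgeR adjusted p = 0.00111). It had 12 and 7 control counts and met the count filter only with the biopsies. DCDC2, encoding a doublecortin protein, rose 4.99-fold (log2 2.32 ± 0.18). LRRC6, a further assembly factor, rose (log2 1.42 ± 0.46, adjusted p = 0.0456) but not by DESeq2 (0.0739) or without control 1 (0.248) or control 2 (0.191). Without control 1 or control 2, the share of the list that was lower was no longer above that of all genes. VWA3B (log2 -2.47 and -2.65), KIF6 (log2 -1.94 and -1.92) and TUBB4B (log2 1.79 and 1.97) were among those that no longer passed.

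**Figure D4:**
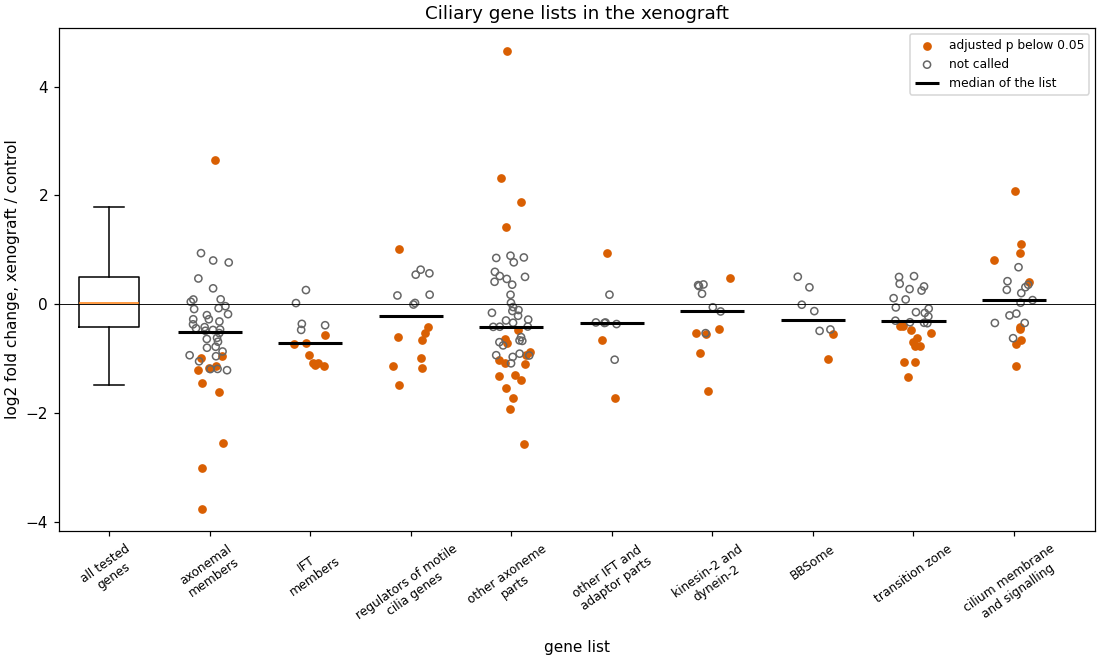
Each point is a tested gene, with its log2 fold change, xenograft over control, by list; filled points have an adjusted p below 0.05, bars are list medians, and the box shows the middle of all genes tested with whiskers at their 5th and 95th percentiles. The medians of the IFT and axonemal members, -0.71 and -0.51, are the lowest of the lists, and the list of cilium membrane and signalling genes has its median above 0.

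IFT subunits under other symbols and their adaptors fell in 2 (22.2%) and rose in 1 (11.1%) of 9 tested genes (median log2 -0.35), shares near or under the 19.0% and 18.5% of all genes. TRAF3IP1, also called IFT54, was at 124 and 135 CPM in the controls and at 31.4, 42.0 and 44.4 CPM in the biopsies (3.29-fold lower, log2 -1.72 ± 0.17, adjusted p = 0.000782), and WDR35, an IFT-A subunit, fell (log2 -0.67 ± 0.13). TULP3, an adaptor that brings membrane receptors to IFT-A, rose (log2 0.94 ± 0.17). Genes of the motors kinesin-2 and dynein-2 fell in 5 (38.5%) and rose in 1 (7.69%) of 13 (median log2 -0.13). DYNC2H1, the heavy chain of the motor that returns IFT trains, was at 59.5 and 51.2 CPM against 16.7, 18.3 and 19.7 CPM (3.03-fold lower, log2 -1.60 ± 0.13, adjusted p = 0.000606). KIF3B, a subunit of kinesin-2, fell by less (log2 -0.52 ± 0.12). Fewer motor genes were lower without control 1 or control 2, where the share of all genes that was lower also dropped. Without the 48 h biopsy 3 motor genes were lower, against 19.8% of all genes. WDR35 did not pass without control 1 or control 2 (0.0800 and 0.0656), nor KIF3B (0.127 and 0.0667), nor TULP3 without control 2 (0.0801).

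Transition zone and nephronophthisis genes, of the base of the cilium, were lower in 11 of 28 tested genes (39.3%, median log2 -0.32), against 19.0% of all genes, led by MKS1 at 14.8 and 16.3 CPM in the controls and 5.40, 6.09 and 6.97 CPM in the biopsies (log2 -1.34 ± 0.17, adjusted p = 0.00176). CC2D2A (log2 -1.07 ± 0.21) and TCTN2 (log2 -0.77 ± 0.16) of the same gate also fell. In the BBSome list, a cargo adaptor complex and its partners, 2 of 8 fell (25.0%, near the share of all genes, median log2 -0.30), with ARL6, the GTPase that recruits the complex, at 73.0 and 71.8 CPM in the controls and 29.5, 41.6 and 37.4 CPM per biopsy (adjusted p = 0.00391). Without control 1 or control 2, only MKS1 and ARL6 of these lists stayed lower. The transition zone share was then no longer above that of all genes. Without the 24 h biopsy 6 transition zone genes were lower, where 15.3% of all genes were.

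Membrane and signalling genes of the primary cilium fell in 5 and rose in 5 of 23 tested genes (21.7% each, median log2 0.07), near the 19.0% and 18.5% of all genes. PKD2, a polycystin channel gene, was at 34.97 and 25.6 CPM in the controls and at 56.4, 51.7 and 51.5 CPM in the biopsies and rose (log2 0.81 ± 0.16, adjusted p = 0.00852), while EVC2, a gene of Hedgehog signalling at the cilium base, fell (log2 -1.14 ± 0.17). GPR161, a ciliary receptor gene, rose on low levels (log2 2.07 ± 0.48, edgeR adjusted p = 0.0151). It had 11 and 5 control counts against 43, 35 and 49, and met the count filter only with the biopsies. Without control 2 no gene of this list passed by edgeR in either direction, and without control 1 there were 1 lower and 2 higher. PKD2 did not pass without control 2 (0.0863), nor GPR161 without either control (0.0654 and 0.147).

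The human-genome table holds counts of the same symbols in the same libraries, so it is not an independent readout. For every 100 counts in the pig table, the human table held 22.8 and 18.8 counts in the control libraries and between 29.0 and 33.4 in the biopsies. The sources used here do not say how reads that match both genomes were assigned. DNAH5 had 291 and 175 human-table counts for control 1 and control 2 against 29, 12 and 24 for the biopsies. Its ratio per 100 pig-table counts was 17.8 and 11.7 against 15.1, 15.0 and 14.4, so that its counts were lower in both tables. Human-table CPM is the count relative to the human-table total of the library, without TMM scaling. Of the 18 genes that fell in the pig table, 17 had a human-table CPM below both controls in every biopsy. The same held for 75.0% of 2373 genes that fell in the pig table and were in the human table. Only 15 of the 18 had at least 10 human-table counts in every library.

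In 18 of the 33 members with at least 10 human-table counts in every library, the human-table count per 100 pig-table counts was higher in all biopsies than in both controls. The same held for 63.7% of all 9972 genes counted in this way, a larger share than among the 33 members. The ratio of CFAP410, known from primary cilia and not called in the pig table, was 4.58 and 4.71 for the controls and 9.40, 9.66 and 12.4 for the biopsies. That of DNAAF5 was 2.28 and 1.31 against 4.26, 3.09 and 5.65. For IFT46 the ratio was 26.6 and 27.2 against 29.1, 29.0 and 28.1. Human or pig origin of these reads was not tested.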

How the data were processed

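The authors deposited raw counts per gene symbol in a pig-genome and a human-genome table, and the totals of these whole numbers differ between libraries. The submitters' processing notes name hg38; no aligner, counting tool, strand setting or annotation release is named in the sources used here. RNA came from homogenised core biopsies, and libraries were depleted of ribosomal RNA, per the labels' protocols. A cell type field names dissociated cells for the same samples. Columns were matched to libraries by time and replicate in their names. Control libraries differed by more than sampling noise (chi-square per degree of freedom 218).

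The tests ran under R 4.3.3 in edgeR 4.0.16, after TMM scaling and filterByExpr (minimum count 10, minimum total 15). The quasi-likelihood fit was robust, and p-values of 12620 genes were adjusted by Benjamini-Hochberg and called at 0.05. The SE is approximate, the size of the log2 change over the root of F. The graft comparison had 3 residual degrees of freedom and the slope 2; controls add only spread to the slope. Alternatives were RLE size factors, library sizes without 13 mitochondrial genes, no count filter, DESeq2 1.42.0, and each library left out. The test was checked on simulated data.

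Members and lists were chosen with earlier results of these data known. The rule named the 12 axonemal genes with the largest change past the threshold in each direction, all IFT genes, the 6 largest slopes that passed in each direction, the highest gene of each family, up to 4 genes per list and direction, and FOXJ1 and the RFX genes. Others, and the level limit, were chosen after their values were seen. Of 71 members, 68 matched Ensembl names and 60 a RefSeq table of Sscrofa11.1, used for overlaps alone. Of marker lists, thick ascending limb and distal tubule genes were higher in 2 and lower in 2 of 7 tested, collecting duct higher in 5 of 9, podocyte higher in 1 and lower in 4 of 5, sperm higher in 1 and lower in 1 of 7, leukocyte higher in 2 and lower in 3 of 9, and dividing cell higher in 1 of 7. All 7 dividing cell genes had log2 values above 0 (median 3.14), and 6 rose with time, against 3.34% of all genes. They summed to 193 and 212 CPM in the controls and to 190, 223 and 448 CPM at 12, 24 and 48 h. The part of dividing cells in the time results on cilia genes was not tested.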

Additional observations from a re-analysis of the deposited data

How the results depend on the processing

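No called graft change of the 59 tested members reversed under the alternatives run, but calls depended on the controls. Leaving out control 1 ended the call of 9 members, control 2 of 11, the 24 h biopsy of 5 and the 12 h biopsy of 1. The axonemal genes CFAP20, CFAP300, DNAH5 and DNAI3 and the IFT genes IFT172, IFT22, IFT80 and IFT88 stayed lower in every setting run. The share of all genes that did so was not counted, so no excess can be read from these names. By DESeq2, 17 axonemal genes were lower, where 20.5% of all genes were. With time 2 axonemal genes rose by DESeq2 and 2 without a count filter, 4.35% of the 46. This was near the share of all genes, 4.64% and 3.41%. In the graft, 2 genes of the regulator list and 1 of the transition zone list rose by DESeq2 (2 and 1 without a count filter). Of all genes, 21.3% and 16.3% were higher in these fits. With 1 library left out at a time, graft counts ranged from 4 to 17 (axonemal lower), 0 to 2 (axonemal higher) and 4 to 11 (IFT lower). Slope counts ranged from 1 to 9 (axonemal rising), 0 to 2 (axonemal falling), 0 to 4 (IFT rising) and 0 to 1 (IFT falling). Once a biopsy is left out, only the 2 controls give the spread of a slope. Lower and higher list counts, tried after the data were seen, ranged from 1 to 8 and 0 to 2 (regulators), 2 to 19 and 2 to 5 (other axoneme), 1 to 3 and 0 to 1 (other IFT), 1 to 5 and 0 to 2 (motors), 1 to 9 and 0 to 1 (transition zone), 0 to 5 and 0 to 6 (membrane), and 1 to 3 lower (BBSome). Without the 48 h biopsy the slopes of DNAH5 and DNAH17 reversed to log2 -2.54 and -2.78 per 24 h (adjusted p = 0.000238 and 0.0267); the cause was not tested. Of 59 list genes called, ARL6, DCDC2, DYNC2H1, DYNLRB2, DZIP1L, MKS1, MORN2, STK33 and TRAF3IP1 passed in every setting, again with no share counted over all genes. No paired analysis was possible because no label links a biopsy to a control. The share of all genes called moved with these settings too. With a biopsy left out, from 15.3% to 21.0% of all genes were lower in the graft and from 14.8% to 21.0% higher. In the same fits from 5.28% to 13.8% of all genes rose with time and from 2.69% to 8.28% fell. All these shares were smaller with a control left out.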
